A study of Mus musculus with 4 samples.

Results

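The genes described here are the replication-dependent histone genes, which make the histones that package newly copied DNA. They were taken as the genes whose symbol starts with Hist and a digit and whose mean over the 4 samples was at least 1 FPKM (a level scaled for transcript length and for the sample's total). Of 63 genes with such a symbol among the 28074 symbols of the table, 60 met this minimum and are called the histone genes below. Their symbols give their class. By symbol, 6 belong to the linker histone H1, 17 to the core histone H2A, 14 to H2B, 11 to H3 and 12 to H4. Of the 60, 3 are annotated as pseudogenes: Hist1h2aj and Hist1h2al of H2A and Hist3h2bb-ps of H2B. The digit after Hist gives the cluster in the genome, with 49 genes in cluster 1, 8 in cluster 2 and 3 in cluster 3. The rule itself reads a symbol and a mean level and no difference between samples, but it was set with earlier results of these data known.

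The samples were leukaemic spleen cells of 2 mice, named 4050 and 4182, that model acute myeloid leukaemia. Every sample, controls included, carried floxed Dnmt3a, both Flt3 alleles with the internal tandem duplication, and Mx1Cre, a recombinase under an interferon-responsive promoter. The DNA methyltransferase gene Dnmt3a and the receptor kinase gene Flt3 are often mutated in this leukaemia. The labels write Dnmt3a as fl/fl in one place and as +/- in another, and this was not settled here. Animal age was not used. Thawed cells recovered for 24 hours with the cytokines SCF, IL6 and IL3 and were then cultured for 3 days with vehicle (control, 1 sample per mouse) or with 10 µg/ml R848 (1 sample per mouse). R848, or resiquimod, is known as an agonist of the endosomal receptor TLR7. The comparison asks how gene expression in these cells differs after R848. Each mouse gave 1 sample per condition, so spreads and p-values rest on 2 mice. Gene-level p-values also draw on a variance estimated over all genes tested.

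In a nucleosome, DNA winds around a core of the histones H2A, H2B, H3 and H4, and H1 binds the linker DNA. Cells make most of these histones in S phase, from many intronless genes that lie together in the genome, so that supply follows DNA synthesis. The mRNAs of these genes are the known exception among animal mRNAs in that they usually carry no poly(A) tail. They end just after a short stem-loop, which the protein SLBP binds for processing, translation and, at the end of S phase, degradation.

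The stem-loop is shown first because it is the feature that sets these mRNAs apart from nearly all others. It was searched as GGNNNTTTTNANNNCC with both arms of 6 bases able to pair, in the GENCODE M21 transcripts of GRCm38 (the mm10 assembly). It lay in the annotated transcript of 39 of the 60 histone genes, 21 to 58 bases after the stop codon, and in 0.251% of 21877 protein-coding genes. The capitals mark the stem-loop, with 5 bases on each side in lower case, read 5′ to 3′ on the transcribed strand.
Hist1h1c: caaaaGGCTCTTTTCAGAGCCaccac
Hist1h2ac: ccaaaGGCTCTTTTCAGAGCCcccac
Hist1h2bp: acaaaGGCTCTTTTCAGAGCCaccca
Hist1h3c: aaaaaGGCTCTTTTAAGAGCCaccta
Hist2h2ac: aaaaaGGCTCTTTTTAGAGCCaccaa
Hist1h4n: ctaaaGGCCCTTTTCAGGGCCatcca
Hist1h4j: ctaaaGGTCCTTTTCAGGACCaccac
Hist2h4: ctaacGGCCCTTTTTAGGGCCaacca
The stem separated H4 from the other classes. All 29 loops in H1, H2A, H2B and H3 genes opened with GGCTC, in 22 cases as the form printed for Hist1h1c. All 10 loops in H4 genes opened with GGCCC (8 genes) or GGTCC (2 genes, Hist1h4b and Hist1h4j). The end of the loop varied in every class. In place of TTTTCA, 6 genes of H1, H2B and H3 had TTTTAA, and 1 H2A gene (Hist2h2ac) and 2 H4 genes (Hist1h4i and Hist2h4) had TTTTTA. Of the 21 histone genes without a match, 3 are annotated as pseudogenes. Another 11 have transcripts that end within 2 bases of the stop codon, so the annotation cannot show a loop there. The other 7 are protein-coding genes whose annotated transcripts run further past the stop codon without a match. Of 55 protein-coding genes with a match, 44 had a Hist symbol. The other 11 included H2afx, a core histone variant gene.

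The promoters also differed by class. RefSeq promoter windows (GRCm38.p6, 250 bases before to 50 after the annotated start) were matched for 52 of the 60 histone genes. The first 250 bases of 4 windows are printed, 1 each for H1, H2A, H3 and H4 among the genes that fell with R848. Motifs were searched on both strands, with overlaps allowed. They were the TATA box as TATAAA, the CCAAT box, the octamer as ATTTGCAT, the H1 box as AAACACA and the core of an element of H4 genes as GGTCCG. Capitals mark every match.
Hist1h1c, chr13:23738557-23738806, plus strand: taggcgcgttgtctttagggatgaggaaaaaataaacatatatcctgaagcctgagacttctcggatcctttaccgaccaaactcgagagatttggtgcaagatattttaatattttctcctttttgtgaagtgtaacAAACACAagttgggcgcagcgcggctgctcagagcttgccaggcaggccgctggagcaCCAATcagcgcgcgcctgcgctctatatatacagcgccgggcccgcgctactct
Hist1h2ac, chr13:23683960-23684209, minus strand: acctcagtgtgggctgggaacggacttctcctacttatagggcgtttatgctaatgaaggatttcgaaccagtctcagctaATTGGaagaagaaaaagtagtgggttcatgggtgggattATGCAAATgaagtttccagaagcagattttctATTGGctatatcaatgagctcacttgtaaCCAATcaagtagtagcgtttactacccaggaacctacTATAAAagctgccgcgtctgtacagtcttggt
Hist1h3i, chr13:21783398-21783647, minus strand: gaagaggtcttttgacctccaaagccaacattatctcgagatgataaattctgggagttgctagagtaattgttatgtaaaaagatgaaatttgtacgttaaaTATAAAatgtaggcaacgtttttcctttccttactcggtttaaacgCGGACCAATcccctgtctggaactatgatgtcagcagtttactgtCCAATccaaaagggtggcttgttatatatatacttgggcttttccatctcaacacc
Hist1h4n, chr13:21832198-21832447, minus strand: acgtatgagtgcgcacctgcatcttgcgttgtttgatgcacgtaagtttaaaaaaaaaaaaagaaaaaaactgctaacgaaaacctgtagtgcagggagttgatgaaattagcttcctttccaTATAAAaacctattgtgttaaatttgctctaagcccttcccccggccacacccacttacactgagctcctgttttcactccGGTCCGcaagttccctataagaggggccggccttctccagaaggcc
CCAAT was present in every matched window of H1 (6 of 6), H2A (15 of 15), H2B (11 of 11) and H3 (9 of 9) but in 3 of 11 of H4, against 37.4% of all 32851 RefSeq windows. GGTCCG was in 10 of 11 H4 windows, 1 of 11 of H2B, 1 of 9 of H3 and none of H1 and H2A, against 8.25% of all windows. The octamer was found in 6 of 15 H2A and 5 of 11 H2B windows and in none of the other classes (1.74% of all windows), and AAACACA in 5 of 6 H1 windows (7.18%). TATAAA was in 33 of the 52 windows (13.6% of all). A match describes letters in the window and shows no bound factor.

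Levels in the table summed to between 950530 and 962001 FPKM per sample. Read counts were not used, so the depth behind a value is unknown. The histone genes were among the most abundant rows, with 11 in the top 100 and 42 in the top 500 of 12612 genes tested. A few other rows took very different shares of the samples. Gm15662, an unnamed gene model, held 8.22% of the R848 sample of mouse 4182 and 0.174% of that of mouse 4050. Gm12913, another such model, held 3.17% and 0.0343%. The controls of mice 4050 and 4182 lay between, at 1.48% and 1.62% for Gm15662 and 0.379% and 0.380% for Gm12913. Where such rows take more of a sample, all other genes take a smaller share of it. Markers of the myeloid lineage were high in all samples, with Mpo, the granule enzyme myeloperoxidase, at 1475 and 1533 FPKM in control and 1281 and 1052 FPKM with R848.

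Histone mRNA was lower with R848 in both mice. The summed level of the 60 genes was 67690.3 FPKM in the control of mouse 4050 and 68564 in that of mouse 4182, and 43141 and 40608 FPKM with R848. Both R848 sums lay well below both control sums, which differed from each other by little. As a share of the sample the genes went from 7.10% and 7.23% in control to 4.51% and 4.23% with R848. The R848 sum was thus 63.7% of the control sum in mouse 4050 and 59.2% in mouse 4182, a mean log2 ratio of -0.70. An exact two-sided permutation test of these sums gave p = 0.333, which is the smallest p that 2 samples against 2 allow. Fewer histone-expressing cells and less histone mRNA per cell cannot be told apart in such bulk samples.

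Gene by gene, differences are given as log2(FPKM + 1), R848 minus control, which understates changes of genes with low values. The test was limma's moderated test over all 12612 genes, two-sided, at a Benjamini-Hochberg adjusted p under 0.05. Of the 60 histone genes, 11 fell and 0 rose, beside a background of 0.381% of all genes called lower and 1.47% called higher. The 11 are among the 48 genes called lower in all. At an unadjusted p under 0.05, 53 were lower and 0 higher. With the mouse as a block, which compares each R848 sample with the control of the same mouse, 41 fell and 0 rose, beside 1.9% and 3.4% of all genes. Those 41 are among 240 lower calls, include all 11, and leave 19 histone genes that passed in neither fit. In both fits the variance estimated over all genes outweighed each gene's own spread. It carried 5.27 degrees of freedom against 2 without the block and 11.3 against 1 with it. The SE of a gene thus reflects mostly other genes, above all with the block.

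The difference was broad rather than carried by a few genes. Among the 60 genes, 58 were lower in both mice, against 38.8% of all genes tested, and the same 58 had both R848 values below both control values, against 28.8%. A difference of -0.5 or below in both mice was seen in 43 of them, beside 3.08% of all genes and 3.97% of the genes whose mean reached 100 FPKM. The median difference was -0.74 over the histone genes (-0.68 in mouse 4050, -0.78 in mouse 4182) and -0.08 over all genes tested (0.0037 and -0.16). The histone genes ranged from -1.24 for Hist1h2ac to 0.14 for Hist2h2ab. Across the 60 genes the differences in the 2 mice correlated weakly (Pearson's r = 0.287 across genes, which are not independent replicates and share each library). The difference was lower in mouse 4182 than in mouse 4050 for 42 of the 60. The median over all genes tested was lower in mouse 4182 as well, by a wider gap (0.0037 and -0.16) than the histone median (-0.68 and -0.78). The count of 42 thus cannot be read as particular to the histone genes. The share of all genes with that order was not counted.

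**Figure D1:**
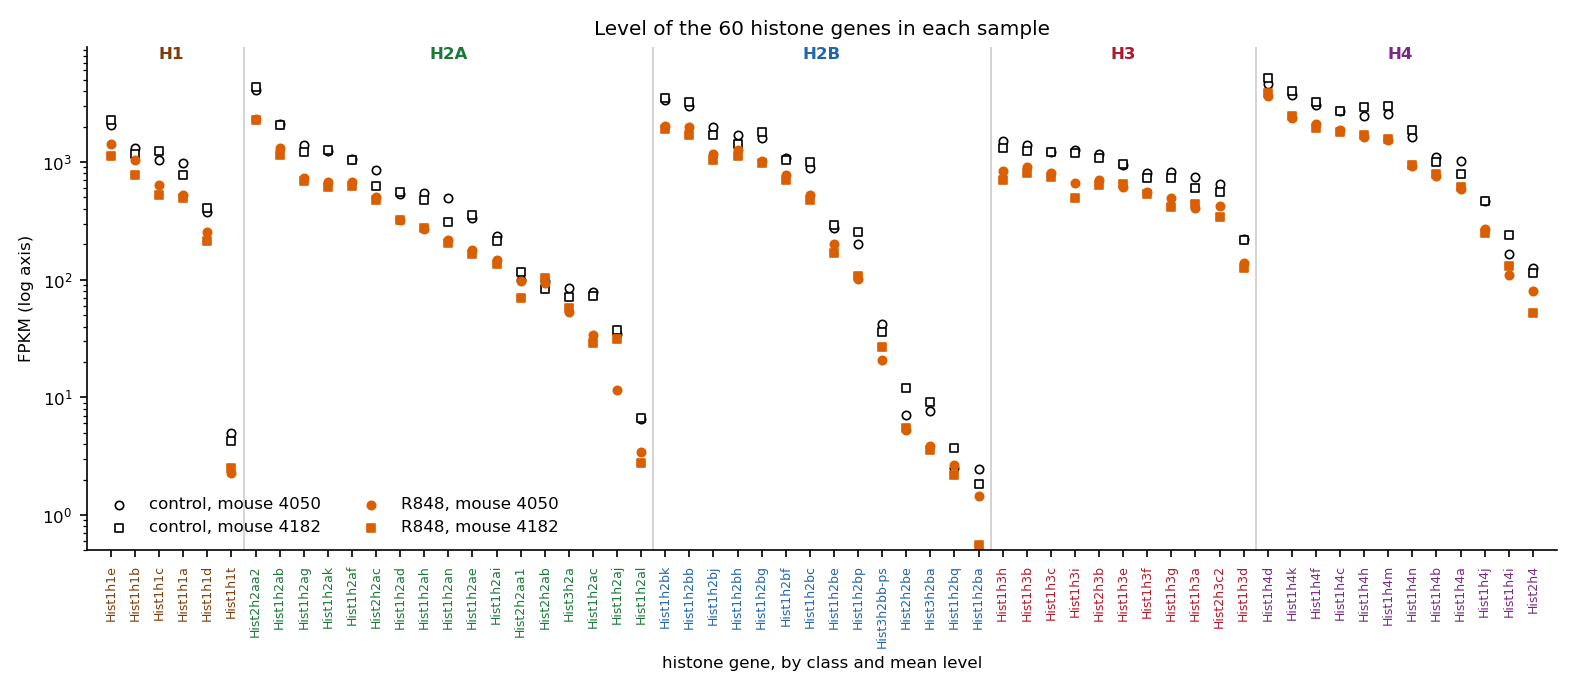
Level of each of the 60 histone genes in the 4 samples in FPKM on a log axis, with genes ordered by class and by mean level. Open symbols are controls and filled symbols R848 samples, circles mouse 4050 and squares mouse 4182, and the filled symbols lie below both open ones for 58 genes, all but Hist2h2ab and Hist1h2bq.

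**Figure D2:**
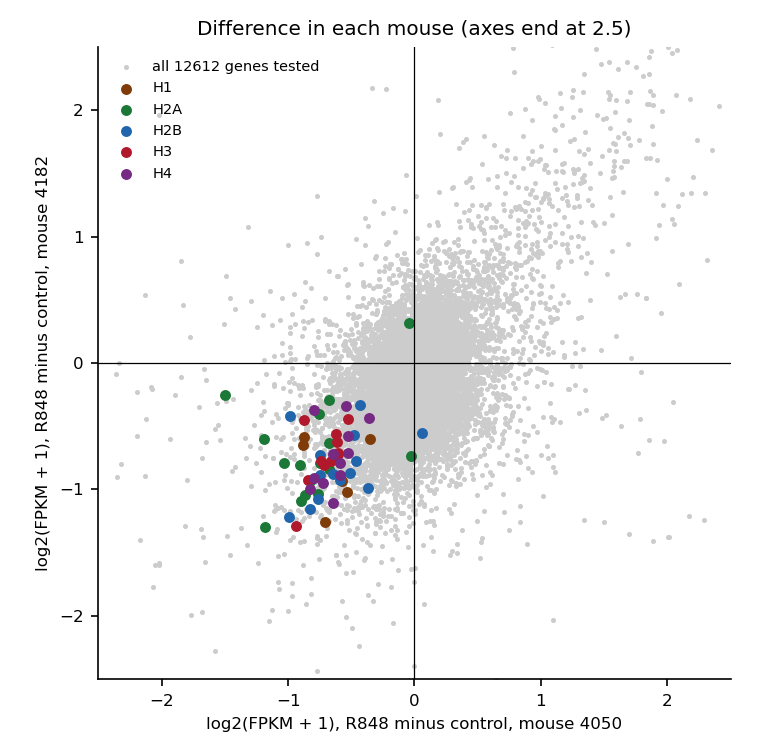
Difference in log2(FPKM + 1), R848 minus control, in mouse 4050 (x axis) and mouse 4182 (y axis), with the 12612 genes tested in grey and the histone genes coloured by class. Except for 2 genes the histone genes lie at the lower left, below 0 on both axes, and 149 genes beyond 2.5 in either mouse are outside the axes.

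By class, the median difference was -0.76 for H1, -0.86 for H2A, -0.72 for H2B, -0.66 for H3 and -0.69 for H4. The ranges of the classes overlapped and the differences between classes were not tested. Summed FPKM sets the classes beside each other per annotated transcript length. These lengths ran from 312 to 7425 bases. Some annotated transcripts ended at the stop codon and others ran far past the loop, by 4884 bases in Hist1h1d. Where they differ from the mRNAs measured, levels are scaled wrongly, so the shares of the classes are uncertain against each other. Each class can still be followed between samples. H4 made up the largest part of the histone sum, 34.96% and 37.4% in control and 36.9% and 39.7% with R848. H2B held 20.3% to 21.1%, H2A 17.8% to 19.7%, H3 14.4% to 15.9% and H1 7.69% to 8.98% over the 4 samples, so the proportions of the classes moved little while the total fell to between 59.2% and 63.7%.

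**Figure D3:**
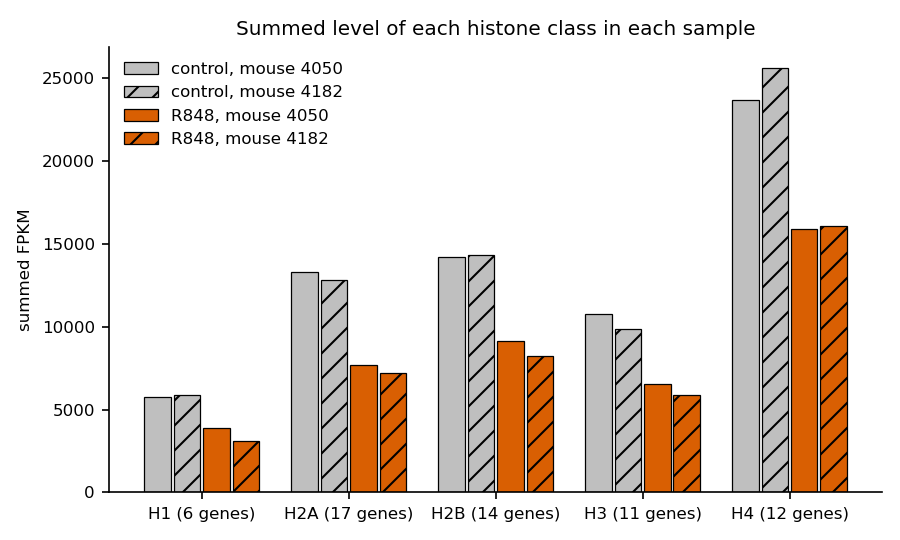
Summed FPKM of the genes of each histone class in each sample, with grey bars for control, orange bars for R848 and hatching for mouse 4182. In all 5 classes both R848 bars are lower than both control bars, and H4 has the highest sum in every sample.

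H1 genes summed to 5781 and 5879 FPKM in control and 3876 and 3124 FPKM with R848. With R848 that was 67.0% of control in mouse 4050 and 53.1% in mouse 4182, the widest gap between the mice of any class. Of the 6 genes 1 fell in the fit without the block and 4 with it. Hist1h1c, a somatic linker histone gene (chromosome 13, 23738808 to 23740367, plus strand), was at 1045 and 1252 FPKM in control and 640.0 and 524 FPKM with R848, named for mice 4050 and 4182 in that order here and below. Both R848 values lay far below both controls, mouse 4182 the lower of the pair, and the groups did not overlap. Its mean fell from 1149 ± 146 to 582 ± 81.8 FPKM (SD, n = 2 each), a difference of -0.98 (SE 0.18, limma adjusted p = 0.0466). Hist1h1e, the most abundant H1 gene, was at 2050.2 and 2268 FPKM in control and 1414 and 1116 FPKM with R848, a difference of -0.78 that passed with the block (limma adjusted p = 0.0204) but not without it (0.107). Hist1h1a and Hist1h1d likewise passed only with the block, at -0.77 and -0.75. Hist1h1b, the second most abundant, was the member of its class nearest to 0 at 1329 and 1172 FPKM in control and 1039 and 774 FPKM with R848, a difference of -0.48 (limma adjusted p = 0.395, 0.129 with the block). Hist1h1t, a linker histone gene known from testis, was at only 4.98 and 4.22 FPKM in control and 2.27 and 2.49 with R848 and passed in neither fit.

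H2A genes summed to 13302 and 12850.4 FPKM in control and 7666 and 7238 FPKM with R848, the lowest relative sums of the 5 classes in mouse 4050 (57.6% of control), with 56.3% in mouse 4182. Of the 17 genes 5 fell without the block and 12 with it. Hist1h2ac (chromosome 13, 23681467 to 23683948, minus strand) had the largest difference of all histone genes. It was at 78.1 and 72.3 FPKM in control and 33.8 and 28.8 FPKM with R848, so that the samples of each group were close together and the groups far apart. The difference was -1.24 (SE 0.17, limma adjusted p = 0.0156, 3.5e-04 with the block).

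Hist1h2ae was at 337 and 351 FPKM in control and 180.2 and 165 FPKM with R848, a difference of -0.99 (SE 0.15, limma adjusted p = 0.0225). As with Hist1h2ac, the controls of both mice were close together and both R848 values lay far below them. Hist1h2ak (1231 and 1262 FPKM in control and 674 and 610.0 FPKM with R848) and Hist1h2ah (549.9 and 476 FPKM in control and 269 and 274 FPKM with R848) fell by 0.96 and 0.91 on the log2 scale, with no overlap between groups. The other 7 H2A calls came only with the block: Hist1h2ab (-0.75), Hist1h2ad (-0.77), Hist1h2af (-0.68), Hist1h2ag (-0.86), Hist1h2ai (-0.66), Hist1h2al (-0.90) and Hist1h2an (-0.89). Hist1h2aj and Hist1h2al, both annotated as pseudogenes, were low, at 34.3 and 37.1 FPKM in control and 11.5 and 31.04 FPKM with R848 and at 6.50 and 6.72 FPKM in control and 3.42 and 2.76 FPKM with R848. The R848 samples of Hist1h2aj disagreed, with mouse 4050 far below and mouse 4182 just below the controls.

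The 1 histone gene with a mean difference above 0 was Hist2h2ab, an H2A gene of cluster 2 (chromosome 3, 96219865 to 96220308, plus strand). It was at 96.8 and 83.4 FPKM in control and 94.04 and 104 FPKM with R848. The R848 sample of mouse 4182 was the highest of the 4 and the control of that mouse the lowest, and the groups overlapped. Its difference was 0.14 (SE 0.16, limma adjusted p = 0.817), a value that does not show absence of change. It lies beside Hist2h2ac (chromosome 3, 96220361 to 96220880, minus strand), which was at 848.5 and 629 FPKM in control and 502 and 475 FPKM with R848, lower with R848 in both mice.

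H2B genes summed to 14187 and 14349.5 FPKM in control and 9118 and 8242 FPKM with R848, which left 64.3% of control in mouse 4050 and 57.4% in mouse 4182. Of the 14 genes 2 fell without the block and 8 with it. Hist1h2bp (chromosome 13, 21787461 to 21789213, plus strand) was at 202 and 252 FPKM in control and 101 and 108 FPKM with R848, a difference of -1.11 (SE 0.17, limma adjusted p = 0.0231). The R848 values were close together, far below both controls. Hist1h2bc was at 891 and 1007 FPKM in control and 523 and 477 FPKM with R848, a difference of -0.92 (SE 0.16, limma adjusted p = 0.0359). The most abundant H2B genes were Hist1h2bk and Hist1h2bb. Hist1h2bk was at 3390.4 and 3513 FPKM in control and 2020.0 and 1897 FPKM with R848 and Hist1h2bb at 3003 and 3249 FPKM in control and 1996 and 1709 FPKM with R848, and both fell in the fit with the block alone (-0.82 and -0.76). Hist1h2be (-0.62), Hist1h2bg (-0.76) and Hist1h2bj (-0.74) likewise fell only with the block. Hist1h2bh, also over 1000 FPKM, passed in neither fit at -0.38, with values of 1712 and 1417 FPKM in control and 1271 and 1127 with R848.

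Among the low H2B genes, Hist1h2bq was the second of the 60 whose groups overlapped, at 2.50 and 3.71 FPKM in control and 2.64 and 2.21 FPKM with R848. Almost none of its sequence is its own (below), so its level is uncertain. Hist1h2ba, an H2B gene known from testis, lay just inside the minimum, at 2.47 and 1.84 FPKM in control and 1.44 and 0.552 FPKM with R848 (mean 1.58 FPKM). Just outside it were Hist1h2aa, also known from testis, with a mean of 0.537 FPKM, Hist1h2br with 0.578 and Hist2h2bb with 0.837. Hist2h2bb was at 0.679 and 0.700 FPKM in control and 1.49 and 0.481 FPKM with R848, with the 2 R848 samples as the highest and the lowest.

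H3 genes summed to 10753 and 9870.0 FPKM in control and 6563 and 5887 FPKM with R848, or 61.0% and 59.6% of control. Of the 11 genes 1 fell without the block and 10 with it, and each of the 11 had both R848 values below both control values. Hist1h3i (chromosome 13, 21782960 to 21783370, minus strand) was at 1267 and 1201 FPKM in control and 663 and 492 FPKM with R848. The R848 sample of mouse 4182 was the lower of the pair, and both were well under the controls (difference -1.11, SE 0.19, limma adjusted p = 0.0340). Hist1h3h and Hist1h3b were the most abundant H3 genes. Hist1h3h was at 1505 and 1323 FPKM in control and 838 and 698 FPKM with R848 (-0.88) and Hist1h3b at 1385 and 1251 FPKM in control and 907 and 811 FPKM with R848 (-0.62), and both passed only with the block (limma adjusted p = 0.00387 and 0.0378). Hist1h3a (-0.66), Hist1h3c (-0.66), Hist1h3d (-0.72), Hist1h3e (-0.59) and Hist1h3g (-0.76) also fell with the block alone. Hist1h3f was the 1 H3 gene that passed in neither fit (-0.49, limma adjusted p = 0.0979 with the block). The H3 genes of cluster 2, Hist2h3b and Hist2h3c2, were at -0.76 and -0.66 and fell with the block.

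H4 genes, which all encode the same protein, summed to 23668 and 25616 FPKM in control and 15917 and 16116 FPKM with R848. This was 67.3% of control in mouse 4050 and 62.9% in mouse 4182. Of the 12 genes 2 fell without the block and 7 with it, and all 12 had both R848 values below both control values. Hist1h4n (chromosome 13, 21831767 to 21832196, minus strand) was at 1643 and 1882 FPKM in control and 925 and 944 FPKM with R848, far below the controls in both mice (difference -0.91, SE 0.16, limma adjusted p = 0.0391). Hist1h4j (chromosome 13, 21735064 to 21735837, plus strand) was at 466 and 469.7 FPKM in control and 269 and 249.3 FPKM with R848, with the 2 samples of each group close together (difference -0.85, SE 0.15, limma adjusted p = 0.0365).

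The most abundant histone gene, Hist1h4d, moved least among the H4 genes. It was at 4639.6 and 5198 FPKM in control and 3624 and 3852 FPKM with R848, a difference of -0.39 that passed in neither fit (limma adjusted p = 0.446, 0.325 with the block). Its groups did not overlap, and its mean with R848 was 76.0% of that in control. Hist1h4k, second in level among the H4 genes, was at 3714 and 4046 FPKM in control and 2375 and 2453 FPKM with R848 (-0.68) and passed with the block (limma adjusted p = 0.0399). Hist1h4h (-0.69), Hist1h4i (-0.73) and Hist1h4m (-0.84) fell with the block as well. Hist1h4a (-0.58), Hist1h4b (-0.44), Hist1h4c (-0.55) and Hist1h4f (-0.62) also passed in neither fit.

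Cluster 2 on chromosome 3 and cluster 3 on chromosome 11 hold few of the genes, and apart from Hist2h2ab (0.14) their differences lay in the range of cluster 1. The medians were -0.75 over the 49 genes of cluster 1 (10 fell without the block, 36 with it), -0.67 over the 8 of cluster 2 (1 and 4) and -0.70 over the 3 of cluster 3 (0 and 1). In cluster 2, Hist2h2aa2 was at 4132 and 4351 FPKM in control and 2330.3 and 2284 FPKM with R848 (difference -0.88, SE 0.16, limma adjusted p = 0.0474) and Hist2h2aa1 at 99.3 and 116 FPKM in control and 97.2 and 69.4 FPKM with R848 (-0.38, 0.551). These are near-identical copies: none of the 31-base words of Hist2h2aa2 is absent from other transcripts, so the split between them is uncertain. Their sum was 4231 and 4467 FPKM in control and 2428 and 2354 FPKM with R848, or 57.4% and 52.7% of control. Hist2h4, the H4 gene of this cluster, was at 125 and 113 FPKM in control and 79.6 and 52.1 FPKM with R848 and fell with the block (-0.88, limma adjusted p = 0.00587). Hist2h2be, an H2B gene known from olfactory neurons, was at 7.10 and 11.96 FPKM in control and 5.26 and 5.52 FPKM with R848 (-0.68) and passed in neither fit.

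Cluster 3 genes were low. Hist3h2a was at 85.3 and 70.9 FPKM in control and 53.2 and 57.8 FPKM with R848 (-0.48) and Hist3h2ba at 7.68 and 9.18 FPKM in control and 3.89 and 3.58 FPKM with R848 (-0.99). The pseudogene Hist3h2bb-ps was at 42.1 and 35.9 FPKM in control and 20.8 and 26.6 FPKM with R848 (-0.70). In all 3 the groups did not overlap, and Hist3h2ba alone passed, with the block (limma adjusted p = 0.0222).

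Cluster 1 lies on chromosome 13 in 3 segments, split here wherever neighbouring genes were more than 200 kb apart, plus the lone pseudogene Hist1h2al. The 13 genes from Hist1h2ai to Hist1h4n (21716422 to 21832196) had a median of -0.88, with 5 calls without the block. The 5 genes from Hist1h2ah to Hist1h2bj (22035164 to 22043676) had a median of -0.82, with 1 call. The 30 genes from Hist1h4h to Hist1h2ba (23531050 to 23934156) had a median of -0.69, with 4 calls, and held both the largest fall of all, Hist1h2ac, and several of the smallest. The ranges of the segments overlapped and their differences were not tested.

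**Figure D4:**
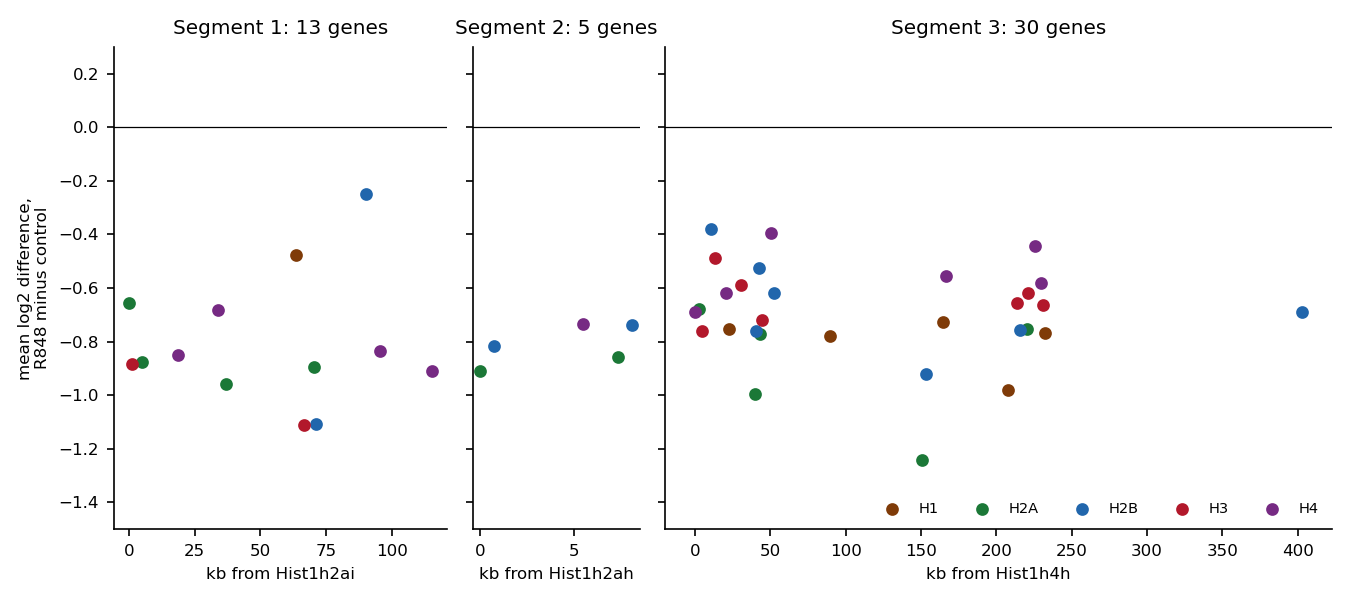
Mean log2 difference, R848 minus control, of the cluster 1 genes against their distance in kb from the first gene of each of the 3 segments on chromosome 13, coloured by class. All 48 points lie below 0, from -1.24 to -0.25.

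Some of the genes share a promoter region with a neighbour on the other strand, and 9 such pairs had annotated starts within 1000 bases of each other. Hist1h2ac and Hist1h2bc, 251 bases apart across the stretch printed above for Hist1h2ac, both fell, by 1.24 and 0.92 on the log2 scale, although Hist1h2bc had a 13.6 times higher mean level. Hist1h2ae and Hist1h2bg, 176 bases apart, were at -0.99 and -0.76. Hist2h2ac and Hist2h2be, 239 bases apart, were at -0.58 and -0.68 with a level ratio of 82.2. The median gap between the differences of 2 partners was 0.213, and over all pairs of the 60 genes it was 0.193. The partners' gap was thus not the smaller of the 2.

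Because many of these genes are near copies of each other, the way reads are shared among them limits single values more than sums. Of the 60 genes, 26 have at least 50% of their 31-base words to themselves among all annotated transcripts, and 34 have fewer. The share was under 10% for 8 genes, among them the called genes Hist1h3i (6.82%), Hist1h2ah (8.80%) and Hist2h2aa2 (0%), and the overlapping gene Hist1h2bq (1.74%). The median difference was -0.72 in the 26 genes and -0.76 in the 34. All 6 H1 genes, 4 of H2A, 8 of H2B, 1 of H3 and 7 of H4 are among the 26. Their medians by class were -0.76, -0.74, -0.70, -0.72 (the single gene Hist1h3d) and -0.69, all lower with R848. Hist1h2be has an annotated span of 23583670 to 23621124, which overlaps an end of Hist1h1e (23620629 to 23622558) on the same strand, and its value (-0.62) is uncertain for that reason.

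Groups of the genes split by the annotated transcript's features or by level had similar medians, which were not tested against each other. The median was -0.73 in the 39 genes with a stem-loop and -0.76 in the 21 without. It was -0.75 in the 15 genes with the poly(A) signal AATAAA after the loop or stop codon and -0.73 in the 45 without. In the 47 genes whose mean reached 100 FPKM it was -0.75, and in the 13 below that it was -0.70.

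The other parts of histone supply were compared through gene lists (the plot of histone genes beside these lists shows each gene). Of 22 genes of histone gene transcription and mRNA processing 0 passed without the block, and at an unadjusted p under 0.05 there were 0 lower and 1 higher. That gene, Casp8ap2 (the processing factor FLASH), was at 7.45 and 6.68 FPKM in control and 15.1 and 11.2 FPKM with R848, higher in both mice, and rose with the block (difference 0.80, limma adjusted p = 0.0445; 0.154 without it). Slbp, the stem-loop binding protein gene, was at 167 and 133 FPKM in control and 180.4 and 156 FPKM with R848 (0.17, 0.793). Npat, which encodes the coactivator at histone gene clusters, was at 15.4 and 14.5 FPKM in control and 16.9 and 13.9 FPKM with R848 (0.03, 0.973). Ccne2, a cyclin of S phase entry, was at 50.7 and 36.4 FPKM in control and 72.2 and 52.8 FPKM with R848 (0.51, limma adjusted p = 0.463, 0.0966 with the block). The list's median was -0.005, nearer 0 than the median of all genes.

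Of 12 genes of histone mRNA decay, 26 of histone chaperones and nucleosome assembly and 39 of DNA replication, 0 passed in either fit and 0 had an unadjusted p under 0.05. Their medians were -0.12, -0.0054 and 0.16. In the decay list, Smg1, a kinase of RNA surveillance, was at -0.35 (limma adjusted p = 0.611), the deadenylase gene Parn at -0.29 (0.691) and the exonuclease gene Eri1 at 0.02 (0.987). Among chaperones, Hjurp, the chaperone of the centromeric H3, was at -0.41 (0.478) and Atrx at -0.35 (0.583). Of the replication genes, Rfc3, a clamp loader subunit, was at 50.97 and 39.6 FPKM in control and 57.3 and 56.7 FPKM with R848 (0.34, 0.551) and Fen1, the flap endonuclease, at 106 and 62.1 FPKM in control and 113 and 110.3 FPKM with R848 (0.45, 0.568). Summed levels of the replication list were 3636 and 2911 FPKM in control and 3727 and 3451 FPKM with R848, so they were not lower with R848 in either mouse.

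Histone variants, most of them made outside S phase from ordinary polyadenylated mRNAs, were the nearest relatives. Of the 14 listed 9 could be tested, 0 passed in either fit and 1 was lower at an unadjusted p under 0.05. Their median was -0.22, between that of all genes and that of the replication-dependent genes, and 8 of 9 were lower in both mice. H2afj, an H2A variant gene, was at 54.6 and 50.8 FPKM in control and 36.8 and 35.3 FPKM with R848 (-0.54, limma adjusted p = 0.211, 0.0874 with the block), and H2afv at 106 and 143 FPKM in control and 92.8 and 90.9 FPKM with R848 (-0.42, 0.446). H2afx, which carries the stem-loop in its annotated transcript, was at 334 and 299 FPKM in control and 281 and 298 FPKM with R848 (-0.13, 0.818).

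**Figure D5:**
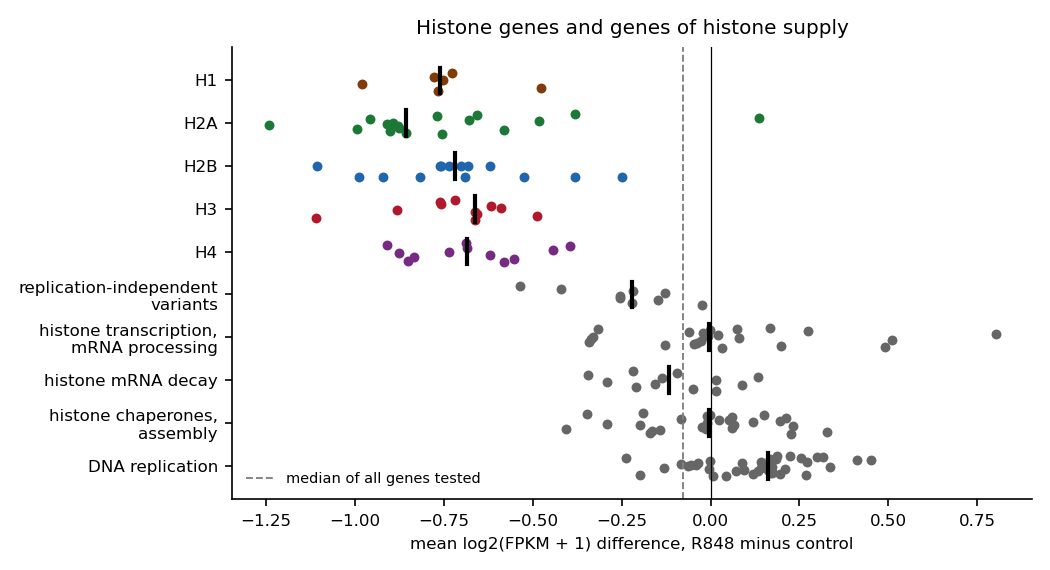
Mean difference in log2(FPKM + 1), R848 minus control, of each gene in the 5 histone classes and in 5 lists, with a black bar at each median and a dashed line at the median of all genes tested. The class medians lie between -0.86 and -0.66 and the list medians between -0.22 and 0.16.

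Markers of several cell types moved in the same comparison. Of 9 tested B and plasma cell markers 4 passed as higher, among them Cd79a, Ms4a1 and Mzb1, and 0 as lower. Cd79b rose with the block alone. Irf4 was lower in both mice but passed in neither fit (-0.71, limma adjusted p = 0.239, 0.0977 with the block). Summed levels of the 13 listed were 554 to 709 FPKM in control and 635 to 690.0 FPKM with R848, most of it Xbp1. The called markers were at low levels, and Mzb1 went from 0.365 and 0.102 to 18.1 and 20.8 FPKM. Of 9 tested T and NK cell markers 2 rose (Cd3g and Trac) and Cd2 with the block alone, with sums of 158 to 265 FPKM in control and 255 to 258 FPKM with R848, and Ncr1 was at 0 in 3 of the 4 samples. Among 11 monocyte and macrophage markers Emr1 and Mpeg1 rose and Mrc1 fell, and Csf1r and Cd14 rose with the block alone, with sums of 4834 to 6733 and 6234 to 7524 FPKM. Of 11 tested progenitor markers 0 passed without the block, and Cd34 and Sox4 fell with it. At an unadjusted limma p under 0.05, 2 were lower and 2 were higher (Prtn3 at 0.39 and Ms4a3 at 0.48). Summed levels of the 12 listed were 7525 to 8255 FPKM in control and 8791 to 8945 FPKM with R848. Erythroid markers were near 0 apart from Tfrc and Gata1, which are not particular to that lineage, and 0 of the 2 tested passed. Whether the monocyte and progenitor markers came from the leukaemic cells or from other cells cannot be told in bulk samples. The part of cell composition in the histone result was not tested.

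The capture of RNA also bears on these genes. The protocols name both depletion of ribosomal RNA and a poly(A) mRNA kit, and histone mRNAs usually lack the tail, so which transcripts the values represent is not settled. None of 20 listed short RNAs without a poly(A) tail had a row of its own. Ccdc107, whose span (chromosome 4, from 43492900) overlaps the gene of Rmrp, such an RNA, on the other strand (43492783 to 43493063), was at 9249 and 12147 FPKM in control and 6083 and 8800.0 FPKM with R848, -0.60 and -0.46 in the 2 mice. Snhg3, whose span holds Snora73a, was at 2853 and 2737 FPKM in control and 4023 and 1811 FPKM with R848, 0.50 and -0.60, in opposite directions. Neither passed in either fit, both were chosen after their values were seen, and the part of RNA capture in the histone result was not tested.

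The direction held under every setting tried, while the count of calls did not. In each of the alternative fits 59 of 60 histone genes had a negative mean difference (55 of 56 with a minimum mean of 5 FPKM). Without the block, 2 calls remained (Hist1h2ac and Hist1h2ae) after scaling by the median log ratio, after quantile normalization and after leaving out the 6 most abundant rows. With the block and median scaling together 33 of the 60 fell, all 11 among them. Without the R848 sample of either mouse 0 of the 60 passed, and without the control of mouse 4050 or of mouse 4182 the counts were 20 and 15.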

How the data were processed

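RNA sequencing measured the 4 samples as paired reads of 150 bases, per the labels' protocols, which also ask for an RNA integrity number above 8.0. Per the submitters' processing notes, kallisto and mm10 were used. The kallisto version and the step to genes are not given in the sources used here. In the deposited file the authors give log2 values that they name log2 FPKM. The values hold a pseudocount of 1 (lowest value 0) and no counts, so no count model was run. Undoing the log gave sums of 950530 to 962001 per sample, as TPM would. Of 28192 rows, 27 whose symbols had become dates and 91 repeated symbols were dropped.

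Genes whose mean reached 1 FPKM went into limma 3.58.1 under R 4.3.3 (trended prior, two-sided, Benjamini-Hochberg over 12612 genes), without a block. Per the labels a mouse number names 1 animal, so the numbers pair the samples (their deviations from the group means correlated at 0.289). A fit that blocks on the mouse is the alternative. Transcripts and positions were those of GENCODE M21 on GRCm38, and shared 31-base words were counted over all of its transcripts. Promoters were matched through RefSeq synonyms. The fits were tested on simulated data. The histone genes and lists were chosen with earlier results of these data known. Named genes are all histone genes past the threshold in either fit, per class the 3 highest levels and the 2 largest and 2 smallest differences, clusters 2 and 3, genes at the minimum, and per list the 2 smallest p and any that passed, apart from 1 that is not reported here. Other named genes were added for their role or after their values were seen. They were Slbp, Npat, H2afx, Eri1, Mpo, Irf4, Xbp1, Ncr1, Prtn3, Ms4a3 and the rows Gm15662, Gm12913, Ccdc107 and Snhg3. Alternatives were a pseudocount of 0.1, no filter or a mean of at least 5, quantile normalization, scaling by the median log ratio, a constant prior and leaving out each sample. Leaving out abundant rows (over 1% of a sample), and the block with median scaling, were added after seeing the data.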

Additional observations from a re-analysis of the deposited data

How the results depend on the processing

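The median difference of the histone genes, those of the 5 classes and the summed level stayed negative under every alternative run. With the mouse as a replicate block 429 genes were called higher and 240 lower (185 and 48 without it), and 41 histone genes lower (11 without it). The block changed no median. With no filter on low values 0 genes passed in either direction by limma, although 881 (higher) and 999 (lower) had an unadjusted p under 0.05, and 0 histone genes passed, although 51 had such a p. Quantile normalization gave 76 higher and 12 lower genes and 2 histone calls, median log ratio scaling 91, 15 and 2, leaving out the abundant rows 89, 16 and 2, and the block with median scaling 404, 145 and 33. A constant prior left 1 histone call. Leaving out 1 sample gave 46 to 259 genes higher, 10 to 136 lower and 0 to 20 histone calls. When 1 sample was left out, the lone sample of a group was assumed to vary like the other group.

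Median log ratio scaling moved the histone median to -0.66, that of H2A to -0.78 and that of H3 to -0.59. Quantile normalization moved H2A to -0.78, H4 to -0.54 and the summed level to -0.60. H2A was at -0.81 with no filter, with a mean of at least 5 and without the abundant rows, and H3 at -0.62 without those rows. These values moved by more than the spread between the mice. Median log ratio scaling shifts all genes of a sample alike, and it moved the median of all genes from -0.08 to -0.0038. With no filter or a mean of at least 5, a different set of genes enters the H2A median. The causes of the other moves were not tested. Leaving out 1 sample gave -0.85 to -0.76 for H2A and -0.79 to -0.63 for H3, some of which lay within that spread. Depth is unknown, so its limits could not be given.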
